A study of Mus musculus with 12 samples.

Results

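The genes described here are 10 nuclear hormone receptors that are of interest in lymphocytes: Nr3c1, Esr1, Rara, Rarg, Rxra, Rxrb, Rora, Vdr, Nr1h2 and Ppard. They were taken by name from an expression table of 41128 genes, in which each of the 10 symbols was found. The table holds 12 RNA sequencing libraries made from C57BL/6J mouse spleens at an age of 6 to 8 weeks, with no genetic change and no treatment named in the labels. They form 4 groups of 3: female and male resting B cells without CD43 on the surface, and female and male naive CD4+ CD62L+ T cells, sorted as CD62L high, CD44 low and CD25 negative. Libraries are named by sex, cell type and the number in their label, which runs from 1 to 3 in B cells and from 4 to 6 in T cells. The methods of the study describe replicates as cells pooled from several mice in the section on its methylation datasets. The paper states that the RNA sequencing used the same cell populations. The libraries are therefore taken as such pools, and p-values as a measure only of the spread between them. The labels also carry a further number, 2 in female B cells and male T cells and 1 in male B cells and female T cells, whose meaning is not given in the sources used here. Within a cell type it cannot be told apart from sex.

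Nuclear receptors are transcription factors that bind small lipid-soluble ligands, such as steroid and thyroid hormones, vitamin D, retinoic acid, oxysterols and fatty acids. Most of them sit on DNA at copies of a short half-site and exchange corepressors for coactivators when the ligand is bound. Steroid receptors such as the glucocorticoid receptor are held in the cytoplasm by heat shock protein chaperones until hormone arrives, whereas retinoic acid, vitamin D, liver X and peroxisome proliferator-activated receptors work as heterodimers with a retinoid X receptor. In lymphocytes, glucocorticoids are known for restraining activation and inducing cell death, and retinoic acid for directing migration to the gut.

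Values are adjusted TPM, treated here as a level per transcript length that the authors rescaled between libraries. On that assumption the levels of 2 genes are set side by side. The sequencing depth is unknown, and precision was read from the lower and upper bound that the table gives for each value. For the 6 receptors at 1 or more in every library, the upper bound divided by the lower one had a median within a cell type that ran from 1.06 for Nr3c1 in T cells to 1.47 for Esr1 in T cells. It was 3.31 for Rarg and 6.02 for Rora in B cells, and 17.4 for Vdr in T cells, so these low values have little precision. B cell identity genes (4 of 4) and T cell identity genes (5 of 5) were higher in the cell type of their label. The libraries labelled T cell 6 of both sexes stood apart in their summed regulatory T cell markers (Foxp3, Il2ra, Ikzf2 and Ctla4), which were 34.2 in the female and 28.6 in the male library against 3.32 to 5.29 in the other T cell libraries and 0.600 to 1.45 in B cells. The summed values of 6 myeloid markers were 10.5 to 15.03 in B cells and 2.67 to 5.87 in T cells, and those of 3 dendritic cell markers were 2.46 to 6.61 and 0.105 to 0.698. Among the myeloid markers, Lyz2 had the largest B cell mean, at 8.89. Csf1r, Itgam, S100a8 and S100a9 overlapped between the cell types, as did the dendritic cell marker Siglech. The mean of Itgam was 1.25 in B cells and 1.41 in T cells. Natural killer and innate lymphoid markers summed to at most 0.836 in a library. Erythroid markers ranged from 0.912 to 198.2 in B cells and from 2.45 to 43.8 in T cells. The CD8 T cell markers reached their largest sum, 8.27, in a T cell library, and the plasma cell markers theirs, 7.67, in a B cell library. Each of these sums joins genes of opposite direction. Mean Cd8b1 was higher in T cells (7.06 against 0.0383), whereas Cd8a favored B cells (1.36 against 0.166). Mean Sdc1 was higher in B cells (6.15 against 0.00367), whereas Prdm1 favored T cells (1.66 against 0.676). In these bulk samples, fewer cells that express a gene and less RNA per cell cannot be told apart.

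The windows before starts in the RefSeq table are shown for the receptors on which the results turn. These are the paralogs Rara and Rarg and the paralogs Rxra and Rxrb, whose ratios differ between the cell types, as well as Rora and Nr1h2. Each window is the 250 bases before the most upstream start in the RefSeq table of GRCm38.p6, written 5′ to 3′ on the strand of the gene. None of the windows overlaps an exon of its gene in GENCODE M21. Those of Rara and Rxra lie inside the GENCODE span of the gene, downstream of its starts at 98927818 and 27676440. The remaining windows shown lie before that span. Windows were found for 9 of the 10 genes. Capitals mark 3 motifs searched on both strands: the nuclear receptor half-site AGGTCA, the ETS motif CCGGAAG and the GC box GGGCGG. Rara lies on the plus strand (chr11:98937446-98937695), Rarg on the minus strand (chr15:102257523-102257772), Rxra on the plus strand (chr2:27676951-27677200), Rxrb on the plus strand (chr17:34031562-34031811), Rora on the plus strand (chr9:68653536-68653785) and Nr1h2 on the minus strand (chr7:44553966-44554215).
Rara: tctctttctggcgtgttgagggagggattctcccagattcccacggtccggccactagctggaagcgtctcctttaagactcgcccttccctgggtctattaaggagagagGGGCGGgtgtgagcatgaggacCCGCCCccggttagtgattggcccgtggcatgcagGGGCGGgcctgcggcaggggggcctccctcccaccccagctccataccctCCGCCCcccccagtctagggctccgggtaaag
Rarg: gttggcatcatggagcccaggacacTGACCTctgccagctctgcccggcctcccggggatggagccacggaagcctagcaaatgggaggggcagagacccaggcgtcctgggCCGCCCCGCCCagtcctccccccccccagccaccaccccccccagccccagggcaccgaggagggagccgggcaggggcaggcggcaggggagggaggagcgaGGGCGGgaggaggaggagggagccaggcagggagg
Rxra: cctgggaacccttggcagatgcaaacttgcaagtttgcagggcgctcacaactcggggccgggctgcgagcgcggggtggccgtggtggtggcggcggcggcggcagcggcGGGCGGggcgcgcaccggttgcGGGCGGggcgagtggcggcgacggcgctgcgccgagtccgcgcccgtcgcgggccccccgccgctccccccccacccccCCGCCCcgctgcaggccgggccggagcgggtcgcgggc
Rxrb: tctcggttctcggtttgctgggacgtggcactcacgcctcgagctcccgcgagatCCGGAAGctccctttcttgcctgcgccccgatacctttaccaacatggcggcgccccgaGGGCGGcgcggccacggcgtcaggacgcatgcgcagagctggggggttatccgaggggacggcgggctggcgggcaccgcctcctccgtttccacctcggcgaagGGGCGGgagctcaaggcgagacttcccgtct
Rora: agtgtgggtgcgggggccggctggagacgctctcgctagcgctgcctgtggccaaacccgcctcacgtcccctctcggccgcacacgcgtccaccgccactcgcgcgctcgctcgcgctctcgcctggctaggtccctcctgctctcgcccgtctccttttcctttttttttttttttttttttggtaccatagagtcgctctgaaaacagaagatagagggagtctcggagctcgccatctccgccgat
Nr1h2: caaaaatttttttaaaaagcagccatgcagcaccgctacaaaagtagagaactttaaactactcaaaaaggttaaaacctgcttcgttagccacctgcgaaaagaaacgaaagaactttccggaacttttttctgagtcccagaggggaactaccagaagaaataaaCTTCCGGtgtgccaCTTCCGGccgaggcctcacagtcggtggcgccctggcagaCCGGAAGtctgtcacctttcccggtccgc

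The paralogs differed in what these windows hold. The window of Rara held 4 GC boxes and no half-site, and that of Rarg held 3 GC boxes, a pair of which share a base, and 1 half-site. Of all 32851 promoter windows of this length, 14% held the half-site, 6.91% the ETS motif and 32.7% the GC box. Rxra and Rxrb had 40 and 31 CpG dinucleotides against a median of 6 over all windows, and Rora had 26. Nr1h2 was the only one of the 6 with more than 1 ETS match, at 3, and Rxrb had 1. A match describes the letters of the window and was not tested as a binding site, and which start the lymphocytes use was not analysed here. Rara, Rarg, Rxra and Rxrb have further windows before downstream starts, which are not shown and can hold other matches. The second window of Rarg had no half-site and no GC box. That of Rxra had 2 half-sites, no GC box and 1 CpG dinucleotide.

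Across both cell types the glucocorticoid receptor gene had the highest level of the 10. In B cells the order of mean levels, from the highest, was Nr3c1, Rxrb, Nr1h2, Rara, Ppard, Esr1, Rxra, Rarg, Rora and Vdr. The ranges over libraries overlapped between Rxrb and Nr1h2 and between Rxra and Rarg, and those of all other neighbors were separate. Rxrb and Nr1h2 did not differ beyond their spread. Within a library, Rxra was nonetheless above Rarg in every B cell library. In T cells the order was Nr3c1, Nr1h2, Rxrb, Rara, Rarg, Rxra, Ppard, Rora, Esr1 and Vdr, with overlap between Nr1h2 and Rxrb and between Ppard and Rora. Together the 10 genes took 65.6% ± 1.19 (SD, n = 6) of the summed adjusted TPM of 49 nuclear receptor genes in the B cell libraries, and 60.9% ± 1.68 (SD, n = 6) in those of T cells. The share of Nr3c1 alone was 27.3% ± 1.22 and 21.1% ± 0.765 (SD, n = 6 each).

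**Figure D1:**
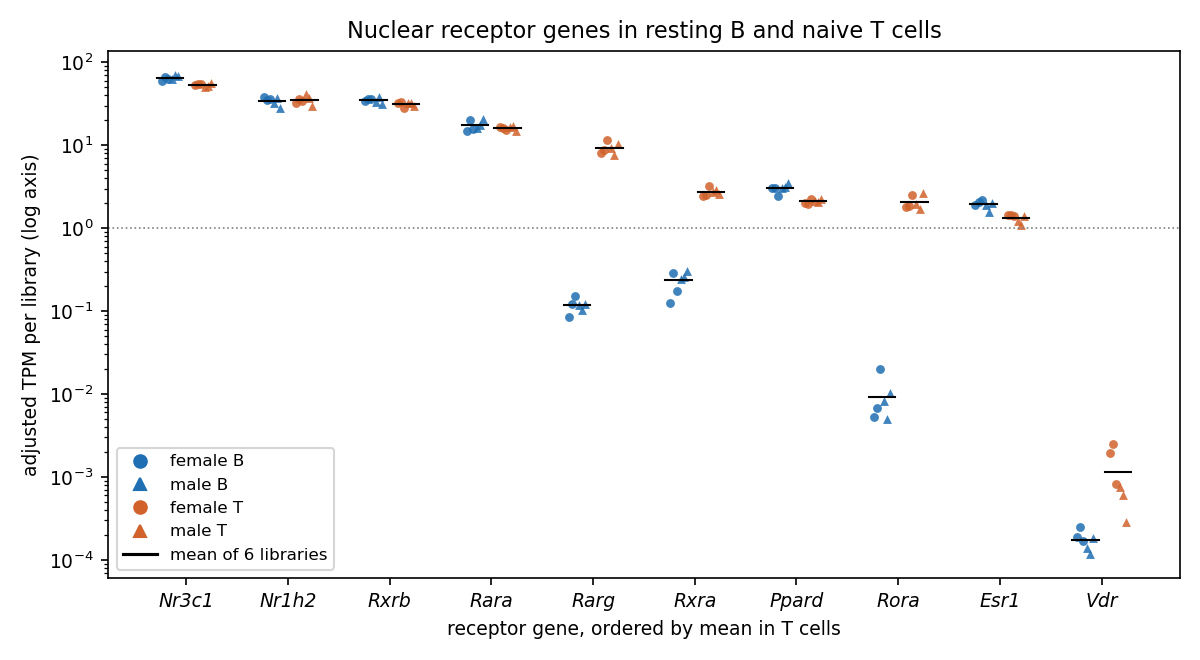
Adjusted TPM of each receptor gene in each library (log axis), with B cells in blue, T cells in orange, females as circles, males as triangles and a line at the mean of the 6 libraries of a cell type. The dotted line marks 1, and Nr3c1, Nr1h2, Rxrb and Rara lie at 14.7 or higher in all 12 libraries, while Rarg, Rxra and Rora lie at most at 0.309 in B cells and at least at 1.72 in T cells.

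Resting B cells and naive T cells were compared to describe which receptors separate the lymphocytes. Rarg, Rxra and Rora were higher in T cells by 79.0, 11.7 and 224 times in mean level, which divides by low B cell values. For these genes, the lowest lower bound in T cells was 31.6, 5.26 and 36.4 times the highest upper bound in B cells. Nr3c1, Ppard, Esr1 and Rxrb were higher in B cells by 1.23, 1.44, 1.45 and 1.11 times in mean level. Rara and Nr1h2 did not pass the threshold. Differences were tested with limma on log2(adjusted TPM + 1), where B minus T is positive for higher values in B cells and the pseudocount of 1 shrinks the differences of low genes. A gene was tested where it reached 1 in at least 3 libraries, and called where its Benjamini-Hochberg adjusted p over all 12520 tested genes was under 0.05. Of the 10 receptors, 9 were tested and 7 were called, against 73% of all tested genes, so the share called among the receptors is near the background. B cells had the higher value in 4 of these calls (31.4% of all tested genes) and T cells in 3 (41.6%). Rarg, Rxra and Rora passed the filter only through T cells. This test treats the 12 libraries as independent, although T cell libraries of the same number deviated together, and with these averaged (6 B cell libraries against 3 T cell means) 6 receptors were called, with Rxrb no longer among them, against 69% of all tested genes. The libraries of the cell types were without overlap for 6 of the 9, against 53.9% of all tested genes, namely Nr3c1, Esr1 and Ppard with higher values in B cells (24.2% of all tested genes) and Rarg, Rxra and Rora with higher values in T cells (29.7%). The summed myeloid and dendritic cell markers were also higher in B cells, although several single markers overlapped between the cell types. The part of such cells in the B cell values was not tested.

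The scaling between libraries sets part of this balance. The median difference over all tested genes was -0.09 with the scaling of the authors, -0.01 under median-ratio scaling and 0.25 when each library was brought to the same total of 1000000. B cells had the higher value in 43.0%, 50.1% and 70.8% of the calls. Rara was called as higher in B cells under median-ratio scaling (0.19, limma adjusted p = 0.041) and under equal totals (0.47, limma adjusted p = 0.028). Nr1h2 turned positive under both, at 0.05 and 0.34, and was not called. The direction of the other 7 tested receptors was the same under the 3 scalings.

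**Figure D2:**
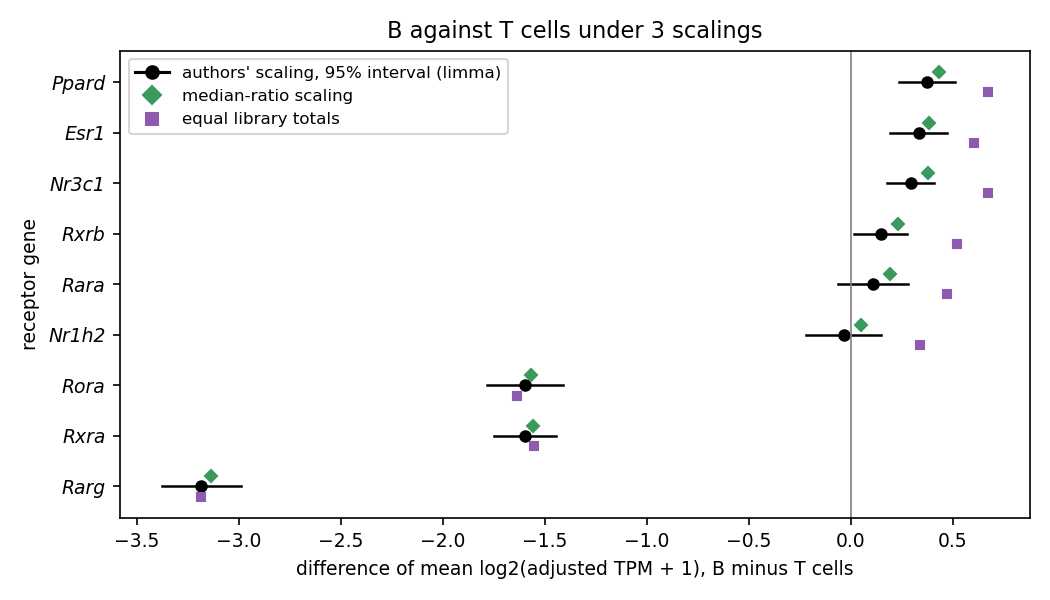
Difference between the mean log2(adjusted TPM + 1) of B and T cells for the 9 tested receptors (horizontal axis, log2 units), with the limma 95% interval under the scaling of the authors in black and the values under 2 other scalings as colored symbols. Rarg, Rxra and Rora lie at -3.18, -1.60 and -1.60 and hardly move with the scaling, while the 6 others shift to the right when library totals are made equal.

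Among the steroid hormone receptors, Nr3c1 encodes the glucocorticoid receptor and lies on chromosome 18 (39410545 to 39519421, minus strand). Its levels in female B cells 1 to 3 were 59.2, 66.9 and 63.2, and in male B cells 63.3, 70.8 and 68.6. Female T cells 4 to 6 had 52.9, 54.4 and 54.4, and male T cells 49.9, 51.1 and 56.1. Every B cell library was above every T cell library. The difference was 0.29 on the log2 scale (SE 0.05, limma adjusted p = 0.00024), and leaving out any 1 library kept it between 0.27 and 0.32.

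Esr1, the gene of the estrogen receptor alpha (chromosome 10, 4611593 to 5005614, plus strand), was the lowest of the receptors that passed the filter in both cell types. Female B cells had 1.89, 2.06 and 2.21, and male B cells 1.91, 1.56 and 1.99. In female T cells the levels were 1.44, 1.43 and 1.40, and in male T cells 1.23, 1.09 and 1.40. The groups of B and T cells did not overlap, although the highest upper bound in T cells (1.88) was above the lowest lower bound in B cells (1.30). The difference was 0.33 (SE 0.06, limma adjusted p = 0.00049). The 2 estrogen target genes listed, Pgr and Greb1, were under the filter, with at most 0.000151 in a library.

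The retinoic acid receptors bind all-trans retinoic acid. Rara (chromosome 11, 98927818 to 98974942, plus strand) had 14.7, 19.98 and 15.9 in female B cells and 16.3, 17.6 and 20.5 in male B cells. Its levels were 16.7, 16.2 and 15.3 in female T cells and 16.5, 17.03 and 14.7 in male T cells, so the cell types overlapped. The difference of 0.11 was not past the threshold (95% interval -0.07 to 0.28, limma adjusted p = 0.24). Rarg (chromosome 15, 102234938 to 102257517, minus strand) had 0.0855, 0.123 and 0.151 in female B cells and 0.119, 0.103 and 0.121 in male B cells. In T cells it had 8.04, 8.64 and 11.6 in females and 9.18, 7.68 and 10.3 in males. The lowest lower bound in T cells was 31.6 times the highest upper bound in B cells. The difference was -3.18 (SE 0.09, limma adjusted p = 2.7e-12), and -5.42 with a pseudocount of 0.1. In the whole table, 9.76% of tested genes were called with a log2 difference of -1 or lower.

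Within a library, the ratio of Rara to Rarg does not depend on the scaling between libraries, provided that scaling is 1 factor per library. It was 106 to 172 in B cells and 1.32 to 2.22 in T cells, so Rara was the higher paralog in each of the 12 libraries and by much less in T cells. The mean log2 ratio was 7.24 ± 0.28 in B cells and 0.81 ± 0.30 in T cells (SD, n = 6 each), a difference of 6.42 (exact two-sided permutation p = 0.00216, adjusted p = 0.00216 over 3 ratios). With 6 against 6 libraries this is the smallest p the test can give. With T cell libraries of the same number averaged, each of the 3 ratios compared had an exact permutation p of 0.0238, the smallest that 6 against 3 values allow. Rarg, Rxra and Nr1h3, the lower genes of these ratios, were themselves without overlap between the cell types. The p-values of the ratios therefore add little to that separation. The third paralog, Rarb, was at 1.03 to 1.37 in B cells and 1.03 to 1.95 in T cells and was not called between them (-0.11, limma adjusted p = 0.29).

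Rxra and Rxrb encode the shared heterodimer partners, the retinoid X receptors alpha and beta. Rxrb (chromosome 17, 34031812 to 34038399, plus strand) had 34.3, 35.9 and 36.4 in female B cells and 32.7, 37.7 and 31.7 in male B cells. T cells had 32.4, 33.2 and 27.9 in females and 31.9, 32.4 and 30.1 in males, and the cell types overlapped. Its difference of 0.15 (SE 0.06, limma adjusted p = 0.041) was close to the threshold. The call was lost without female B cell 2 (adjusted p = 0.070), female B cell 3 (0.082), male B cell 2 (0.099), female T cell 6 (0.095), male T cell 4 (0.057), male T cell 5 (0.0503) or male T cell 6 (0.082), without both T cell libraries numbered 6 (0.16), or with T cell libraries of the same number averaged (0.074, all limma). Rxra (chromosome 2, 27676440 to 27762957, plus strand) had 0.126, 0.292 and 0.174 in female B cells and 0.243, 0.261 and 0.309 in male B cells. Its levels in T cells were 2.43, 2.54 and 3.25 in females and 2.76, 2.87 and 2.59 in males. The difference was -1.60 (SE 0.07, limma adjusted p = 2.6e-10), and -3.11 with a pseudocount of 0.1.

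Rxrb was thus the higher of the pair in both cell types. Its ratio to Rxra was 103 to 272 in B cells and 8.59 to 13.3 in T cells. On the log2 scale the ratio was 7.28 ± 0.52 and 3.52 ± 0.23 (SD, n = 6 each), a difference of 3.76 (exact two-sided permutation p = 0.00216, adjusted p = 0.00216). Rxrg, the remaining retinoid X receptor gene, was at most at 3.84e-05 in a library. With a pseudocount of 1 added to both genes, the difference of the Rxrb to Rxra ratio was 1.75 and that of the Rara to Rarg ratio was 3.29.

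Nr1h2 encodes the liver X receptor beta, a sensor of oxysterols (chromosome 7, 44549616 to 44553951, minus strand). Levels in female B cells were 38.5, 35.0 and 35.7, and in male B cells 32.1, 36.8 and 27.9. Female T cells had 32.7, 36.2 and 33.7, and male T cells 41.8, 36.8 and 29.9. The ranges overlapped, and the difference was -0.04 (95% interval -0.22 to 0.15, limma adjusted p = 0.72). Its paralog Nr1h3, the liver X receptor alpha, was under the filter at 0.0541 to 0.165 in B cells and 0.229 to 0.672 in T cells, without overlap. The ratio of Nr1h2 to Nr1h3 was 195 to 711 in B cells and 50.1 to 131 in T cells. The difference of the mean log2 ratios was 2.18 (8.47 ± 0.78 against 6.29 ± 0.58, SD, n = 6 each, exact two-sided permutation p = 0.00216, adjusted p = 0.00216), and 0.38 with a pseudocount of 1 added to both genes (exact permutation adjusted p = 0.013). Nr1h3 was chosen after its values were seen, so these p-values add little to the separation of its levels.

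**Figure D3:**
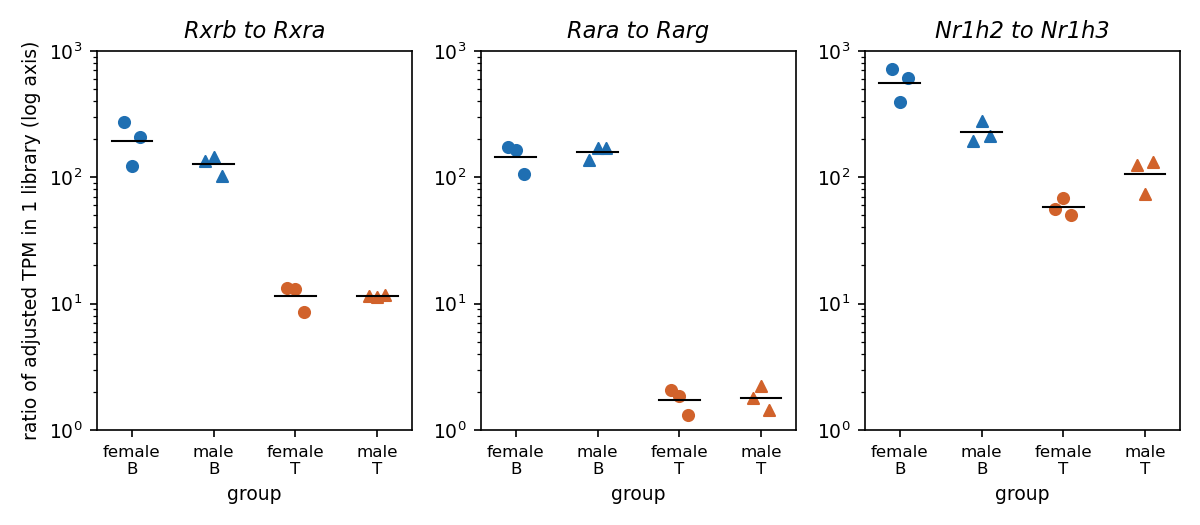
Ratio of the adjusted TPM of paralogous receptor genes in each library (log axis) by group, with B cells in blue, T cells in orange and a line at the geometric mean of the 3 libraries. The B cell libraries lie above the T cell libraries in all 3 panels, with 106 to 172 against 1.32 to 2.22 for Rara to Rarg.

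Ppard encodes a peroxisome proliferator-activated receptor that responds to fatty acids (chromosome 17, 28232700 to 28301474, plus strand). It had 3.02, 3.04 and 2.44 in female B cells and 3.06, 3.12 and 3.48 in male B cells. Levels in T cells were 1.98, 1.95 and 2.22 in females and 2.14, 2.06 and 2.26 in males, all below the B cell libraries. The difference was 0.37 (SE 0.06, limma adjusted p = 0.00017). Its relatives Ppara and Pparg were under the filter, with at most 0.00120 and 0.0626 in a library.

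Rora encodes an orphan receptor of the ROR family (chromosome 9, 68653786 to 69388246, plus strand), known for its part in the circadian clock and in innate lymphoid cells. Levels in female B cells were 0.00524, 0.00671 and 0.0203, and in male B cells 0.00814, 0.00501 and 0.0103. In T cells it had 1.78, 1.85 and 2.49 in females and 1.94, 1.72 and 2.68 in males. The lowest lower bound in T cells was 36.4 times the highest upper bound in B cells, and the difference was -1.60 (SE 0.08, limma adjusted p = 1.9e-09), or -4.30 with a pseudocount of 0.1. Of its exonic bases 0.627% are shared with Gm15511 on the other strand. Rorb, a receptor gene of the same family, was at most at 4.92e-05.

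Within T cells, the libraries numbered 6 held the highest levels of both Rarg (11.6 and 10.3, against 7.68 to 9.18) and Rora (2.49 and 2.68, against 1.72 to 1.94). These are also the libraries with the high regulatory T cell markers. Foxp3 was 2.57 and 1.82 there against 0.440 to 0.735, Il2ra 4.999 and 4.11 against 0.158 to 0.340, Ikzf2 13.4 and 11.3 against 1.07 to 2.07, and Ctla4 13.2 and 11.4 against 1.57 to 2.15. A sort for CD25-negative cells, as named in the labels, would remove most regulatory T cells, and Il2ra, the gene of CD25, was high in these libraries against that sort. The part of regulatory T cell RNA in the levels of Rarg and Rora was not tested. Without both libraries, the difference between B and T cells was -3.07 for Rarg (limma adjusted p = 3.6e-11) and -1.48 for Rora (limma adjusted p = 3.1e-09). With all libraries it was -3.18 and -1.60. In the remaining T cell libraries Foxp3, Ikzf2 and Ctla4 were above all their B cell values. Il2ra went the other way, as it was below its 0.432 to 1.11 in B cells. In Rxra the female T cell 6 library was the highest at 3.25, and the male one, at 2.59, lay among the others. Other receptors also stood apart in the libraries numbered 6. Ppard was highest there (2.22 and 2.26, against 1.95 to 2.14), and so was Nr3c1, by a narrow margin. Rara (15.3 and 14.7, against 16.2 to 17.0) and Rxrb (27.9 and 30.1, against 31.9 to 33.2) were lowest there.

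Vdr, the vitamin D receptor gene (chromosome 15, 97854425 to 97910630, minus strand), was near the lower end of the table and was not tested. Female B cells had 0.000191, 0.000250 and 0.000167, and male B cells 0.000141, 0.000118 and 0.000185. Female T cells had 0.00196, 0.00248 and 0.000819, and male T cells 0.000759, 0.000598 and 0.000285. The T cell values were above those of B cells, but the deposited intervals overlapped. All 12 values were at most 0.00248, and the highest upper bound was 0.00599. The target gene Cyp24a1, which encodes the enzyme that breaks down active vitamin D, was at most at 0.000794, and the enzyme gene Cyp27b1 was at most at 0.0737.

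The sexes were then set against each other in B and in T cells, where the estrogen and glucocorticoid receptors are of interest because the levels of steroid hormones differ between the sexes. In B cells 0 of the 9 tested receptors were called by limma, against 0.144% of all tested genes, and 0 passed an unadjusted p of 0.05, against 2.98%. In T cells the counts were also 0 and 0, against 0.104% and 2.55% of all tested genes. The smallest unadjusted p of a receptor in B cells was that of Ppard, with a mean of 2.84 ± 0.339 in females and 3.22 ± 0.230 in males (SD, n = 3 each). Its difference, female minus male, was -0.14 (95% interval -0.33 to 0.06, limma adjusted p = 1.00). In T cells it was that of Esr1, with 1.42 ± 0.0212 and 1.24 ± 0.153 (SD, n = 3 each) and a difference of 0.12 (95% interval -0.08 to 0.32, limma adjusted p = 1.00). In B cells Esr1 also had a difference of 0.12 (95% interval -0.08 to 0.31). For Nr3c1 the intervals ran from -0.26 to 0.06 in B cells and from -0.12 to 0.20 in T cells, so larger sex differences than these lie outside them. Sex and the further number in the labels cannot be told apart in either cell type.

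Whether a sex difference itself differed between the cell types was tested as an interaction in the same fit. No receptor was called by limma (0 of 9), against 0% of all tested genes, and 0 passed an unadjusted p of 0.05, against 2.36%. The smallest p was that of Nr1h2, whose female minus male difference was 0.18 in B cells and -0.07 in T cells, a difference of 0.24 (95% interval -0.12 to 0.61, limma adjusted p = 1.00). The interaction cannot be told apart from an effect of the further number, which is 2 in female B and male T cells.

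The 39 other nuclear receptor genes were set beside the 10. In total 14 of the 49 receptor genes were at 1 or more in every B cell library, 19 in every T cell library and 14 in both, and 21 were under 0.1 in all 12 libraries. Of the 39, 11 were tested and 9 were called, of which 7 favored T cells and 2 B cells, with a median difference of -0.34 against -0.09 over all tested genes. Of all tested genes 73% were called, 41.6% with higher values in T cells and 31.4% in B cells, and the counts of this and the following lists are to be read against these shares. The thyroid hormone receptor alpha gene Thra had 1.42 to 1.96 in B cells and 6.99 to 9.21 in T cells (-1.77). Nr4a3 and Thrb, with differences of -0.91 and -0.90, passed the filter only through T cells. Thrb did so only through the 3 male T cell libraries, at 1.02 to 1.12 against 0.797 to 0.833 in the female ones. Nr2f6, an orphan receptor gene, was higher in B cells, at 2.91 to 4.69 against 1.07 to 1.67 (1.17). With equal library totals 7 of the 11 were called, of which 4 favored T cells and 3 B cells. In T cells Nr2c2, an orphan receptor gene, had the second highest mean of the family at 41.3, after Nr3c1 at 53.1 and before Nr1h2 at 35.2.

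**Figure D4:**
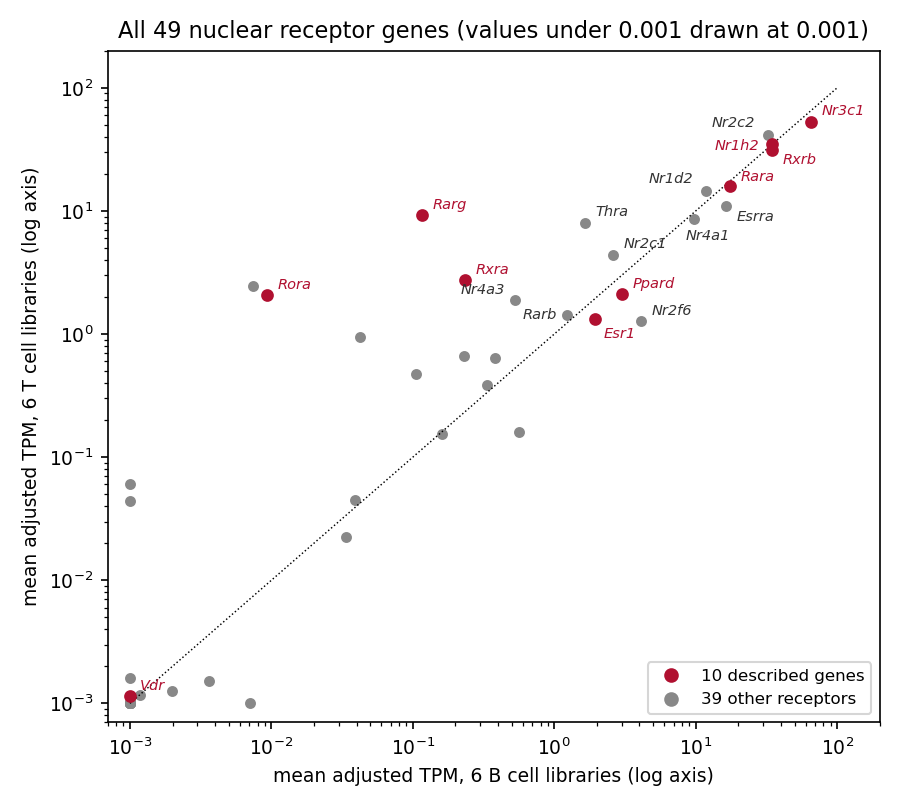
Mean adjusted TPM of 49 nuclear receptor genes in the 6 B cell libraries (horizontal, log axis) and the 6 T cell libraries (vertical, log axis), with the 10 described genes in red, the others in grey and equality as a dotted line. Rarg, Rxra and Rora lie far above the line, and Nr3c1 lies at the upper end with 65.4 in B cells and 53.1 in T cells.

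Coregulators carry the effect of a bound receptor to chromatin. Of 10 coactivator genes, 9 were tested and 9 were called, 6 in favor of B cells (31.4% of all tested genes) and 3 of T cells (41.6%), against 73% called, with a median difference of 0.24. The acetyltransferase gene Kat2b was higher in T cells (11.4 to 13.4 in B cells, 27.3 to 35.1 in T cells, -1.22), as was Ncoa2 (-0.52). Ep300, the gene of the acetyltransferase p300, was higher in B cells (53.5 to 65.1 against 26.1 to 37.1, 0.95), and so were Ncoa1 (0.67) and Ncoa3 (0.51). Of 8 corepressor genes, 8 were tested and 6 were called (against 73% of all tested genes), 3 in each direction, with a median of -0.11. Nrip1, a corepressor that binds ligand-bound receptors, had 8.83 to 9.96 in B cells and 26.2 to 34.3 in T cells (-1.49). Tbl1x was also higher in T cells (-0.79), and Lcor (0.54) and Tbl1xr1 (0.51) were higher in B cells. Under equal library totals 7 coactivators were called, 6 of them higher in B cells, and 5 corepressors, 3 of them higher in B cells, with a corepressor median of 0.26.

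Of the 8 genes for chaperones and cochaperones of steroid receptors, 8 were tested and 2 were called (against 73% of all tested genes), both higher in T cells (41.6%), with a median of -0.05. Fkbp5, a cochaperone that lowers the hormone binding of the glucocorticoid receptor, had 5.34 to 8.02 in B cells and 11.2 to 13.1 in T cells (-0.77, SE 0.08, limma adjusted p = 2.8e-06). Bag1 had 23.4 to 29.6 and 34.8 to 46.1 (-0.56). Hsp90ab1 was at 302 to 507 in B cells and 344 to 384 in T cells and was not called (limma adjusted p = 0.91). With equal totals 3 of the 8 were called, 2 of them higher in B cells.

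Ligand supply was read from 18 genes of ligand synthesis and breakdown, of which 4 were tested and 3 were called (against 73% of all tested genes), 1 in favor of B cells and 2 of T cells, with a median of -0.29. Hsd11b1, whose enzyme regenerates active glucocorticoid from its inactive form, had 6.91 to 10.7 in B cells and 49.4 to 70.3 in T cells (-2.67, SE 0.11, limma adjusted p = 1.0e-10). Cyp27a1, whose enzyme makes oxysterol ligands of the liver X receptors, had 5.99 to 11.5 in B cells and 0.0129 to 0.128 in T cells (3.36, SE 0.11, limma adjusted p = 1.8e-11), and passed the filter only through B cells. Fabp5, which carries fatty acids, was higher in T cells (-0.55). With equal totals 2 of the 4 were called, 1 in each direction. Retinaldehyde dehydrogenase genes, which make retinoic acid, were under the filter, with at most 0.322 for Aldh1a1 and 0.310 for Aldh1a2 in a library.

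Target genes did not share one direction. Of 10 glucocorticoid target genes, 9 were tested and 7 were called (against 73% of all tested genes), 2 in favor of B cells (31.4%) and 5 of T cells (41.6%), with a median of -0.77. The interleukin 7 receptor gene Il7r, which is also a marker of naive T cells, had 0.229 to 0.828 in B cells and 206 to 229 in T cells (-7.28), and passed the filter only through T cells. Sgk1 (-1.84), Errfi1 (-1.19) and Fkbp5 (-0.77), which also counts among the cochaperones, were higher in T cells as well. Dusp1 was close to the threshold (-0.95, SE 0.37, limma adjusted p = 0.035), with overlapping levels of 8.25 to 52.6 in B cells and 27.4 to 82.8 in T cells. The 2 called genes with higher values in B cells had smaller differences than these and are not named. Under median-ratio scaling 6 of the 9 were called, 4 of them higher in T cells. With equal library totals 8 were called, 5 of them higher in T cells and 3 in B cells. Tsc22d3, which encodes the glucocorticoid-induced leucine zipper, ranged from 171 to 509 in B cells and from 183 to 420 in T cells and was not called (limma adjusted p = 0.21).

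Of 7 liver X receptor target genes, 6 were tested and 6 were called (against 73% of all tested genes), 2 in favor of B cells (31.4%) and 4 of T cells (41.6%), with a median of -0.45. Abca1, the cholesterol exporter, had 37.2 to 49.2 in B cells and 4.88 to 7.42 in T cells (2.60, SE 0.09, limma adjusted p = 3.3e-11). Mylip, whose product degrades the low-density lipoprotein receptor, was at 50.2 to 69.5 and 26.5 to 30.5 (1.07). Smpdl3a (-1.79), Lpcat3 (-0.65) and the cholesterol exporter gene Abcg1 (-0.50) were higher in T cells. Under equal library totals 3 of the 6 were called, 2 of them higher in B cells.

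Of 7 retinoic acid target genes, 3 were tested and 2 were called (against 73% of all tested genes). The gut homing receptor gene Ccr9 had 0.864 to 1.39 in B cells and 2.58 to 3.56 in T cells (-0.97), and Tgm2, which passed the filter only through B cells, was higher there (0.77). Of 7 peroxisome proliferator-activated receptor target genes, 4 were tested and 3 were called (against 73%). Acadvl, for fatty acid oxidation, was higher in T cells (-1.11), as was Slc25a20 (-0.46), and Plin2, which coats lipid droplets, was higher in B cells (0.39). With equal totals 3 of the 4 were called, 2 of them higher in B cells. The clock gene Arntl, a target of ROR receptors, was the only 1 of 3 listed that was tested and was higher in B cells (0.44). Between the sexes 0 genes of these lists were called by limma in either cell type or in the interaction, and at most 1 gene of a list had an unadjusted p under 0.05.

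**Figure D5:**
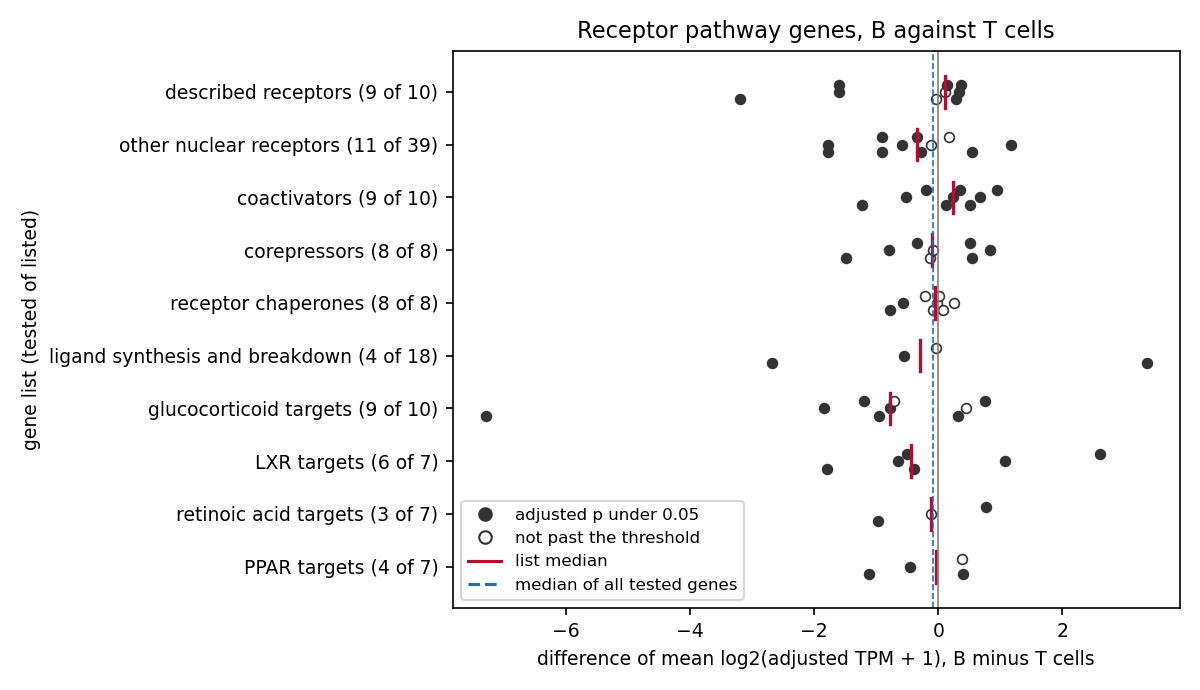
Difference between the mean log2(adjusted TPM + 1) of B and T cells (horizontal axis, log2 units) for the tested genes of 10 lists, with filled points for limma adjusted p under 0.05, a red line at the median of the list and a dashed line at the median of all tested genes (-0.09). Medians of the lists drawn run from -0.77 for glucocorticoid targets to 0.24 for coactivators, and most lists hold genes on both sides of 0.

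The genes whose levels most resembled those of each receptor were read from the Pearson r of log2(adjusted TPM + 1) over the 12 libraries, as a description. The libraries share 2 cell types, so genes that differ strongly between B and T cells reach a high r. For Rarg they were Fasl (r = 0.9996) and Ankrd13b (0.999), for Rxra Zhx3 (0.999) and Tmem164 (0.997), and for Rora Itga7 (0.999) and the corepressor gene Nrip1 (0.998). Nr3c1 was closest to Tmem116 (0.978) and Grk5 (0.966), Esr1 to Ddx19a (0.976) and Fbxo30 (0.964), and Ppard to an immunoglobulin kappa variable segment (0.981) and Lta (0.968). The receptors that differed little between the cell types had lower values, with Flad1 (0.893) and Atxn7l2 (0.898) for Rxrb, Zfp319 (0.906) and Sphk2 (0.852) for Nr1h2, and the antisense transcripts RP23-258L8.1 (0.916) and 4930515G01Rik (0.878) for Rara.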

How the data were processed

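RNA of sorted cells was depleted of ribosomal RNA, spiked with ERCC standards and made into stranded libraries, per the labels. The submitters' processing notes name Trim Galore, FastQC, STAR and mm10. How genes were quantified and values adjusted, the annotation, and what share the interval covers are not given in the sources used here. The deposited signal is adjusted TPM, which the authors gave as a point, a lower and an upper value for each gene and library. It is not a read count, no value is 0 and depth is unknown. Library totals ran from 561020 to 1453940, and the largest gene took 11.4% to 37.4% of a total. Some label fields name genomic DNA as the molecule, and RNA expression was assumed.

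Of 41128 genes, 40254 (97.9%) matched GENCODE M21 (GRCm38) by identifier without its version. The 12520 genes that reached 1 in 3 or more libraries were tested with limma 3.58.1 (R 4.3.3) on log2(adjusted TPM + 1), with 1 coefficient per group over all 12 libraries, a mean-variance trend and Benjamini-Hochberg adjustment, and an adjusted p under 0.05 was called. The scripts were tested on simulated data. Ratios within a library were compared by exact permutation over libraries. Python 3.11.15, numpy 2.4.6, pandas 2.3.3, scipy 1.17.1 and matplotlib 3.10.9 were used. Groups and numbers came from the labels. In T cells, libraries of the same number deviated together from their group means (r of 0.72, 0.55 and 0.52 over the tested genes), so the number was also fitted as a block, and for B against T cells these libraries were also averaged.

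The receptors and the gene lists were chosen with earlier results of these data known. Named are the 10 receptors, up to 5 called genes of each list by size of difference (a few that fall under this rule are not reported here), marker genes by range, and the 2 genes most like each receptor. Genes named beside these (Nr1h3, Ppara, Pparg, Rorb, Rxrg, Rarb, Nr2c2, Hsp90ab1, Tsc22d3, Pgr, Greb1, Cyp24a1, Cyp27b1, Aldh1a1 and Aldh1a2) were chosen after their values were seen.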

Additional observations from a re-analysis of the deposited data

Results flagged for a closer look

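Among the 10 receptors and 3 ratios, 26 series of 6 libraries of 1 cell type were searched for a library far from the others, for which chance flags about 1 in 20. The B cell value of Rora in female B cell 3 was 0.0203, and the next highest was 0.0103, a gap of 65.2% of the range. The deposited interval of that value runs from 0.00810 to 0.0420.

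The ratio of Nr1h2 to Nr1h3 differed between the sexes in opposite directions in the cell types. In B cells the 3 female libraries (395 to 711) were above the 3 male ones (195 to 279), with a female geometric mean 2.46 times the male one. In T cells the 3 female libraries (50.1 to 68.3) were below the 3 male ones (72.9 to 131), with a female geometric mean 0.544 times the male one. The difference between these sex effects was not tested. The higher ratios lie in both cell types with the libraries whose labels carry a further number 2 (female B and male T cells), and sex and that number cannot be told apart. Nr1h3 had at most 0.672 in a library, and its deposited bounds are wide, at 0.0219 to 0.0954 in female B cell 1.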

How the results depend on the processing

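The number of receptors called between B and T cells was 7 and lay between 6 and 7 when 1 library was left out, with Rxrb the gene that lost its call, also without the mean-variance trend (limma adjusted p = 0.051). It was 8 with no filter, where Vdr was added, and 8 under median-ratio scaling and under equal library totals, where Rara was added, and 6 with T cell libraries of the same number averaged, where Rxrb was lost (limma adjusted p = 0.074). Requiring at least 5 in at least 3 libraries gave 3 called receptors of 5 tested, because Esr1, Ppard, Rxra and Rora were then not tested. With no filter, 1 receptor was called between the sexes in T cells, Vdr, with a log2 difference of 0.0017 (limma adjusted p = 0.028), under a setting that called 25.8% of all genes. Nr1h2 changed sign between B and T cells from -0.04 to 0.049 under median-ratio scaling and to 0.34 under equal library totals, and ranged from -0.098 to 0.019 with 1 library left out, being positive without male B cell 3 (0.014) or male T cell 4 (0.019), and the cause was not tested. With the replicate number as a block, 0 receptors were called between the sexes in B cells or T cells and 0 in the interaction, so the block changed no call. The comparison of B and T cells was not blocked, since the cell types share no number. In B cells libraries of the same number did not deviate together (r of -0.17, -0.04 and -0.34). Over all tested genes, the fits of T cells alone called 10 genes without the block and 5 with it. Leaving out both T cell libraries numbered 6, averaging T cell libraries of the same number, and rescaling for the other lists, were chosen after seeing the data. The 3 ratios kept their direction and their call in every alternative run, with differences of 3.60 to 3.88, 6.34 to 6.53 and 1.98 to 2.35 on the log2 scale when 1 library was left out. Erythroid markers had 0 calls by limma under the scaling of the authors and 2 under equal library totals. Unknown depth limits statements on Vdr, Nr1h3 and the B cell levels of Rarg, Rxra and Rora to the width of their deposited bounds.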

Other observations

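Some genes of the receptor pathways were under the filter and yet without overlap between the cell types, and they are given as values chosen after they were seen. The mineralocorticoid receptor gene Nr3c2, a close relative of Nr3c1, had 0.395 to 0.779 in B cells and 0.106 to 0.277 in T cells. Ppargc1a, a coactivator gene known for mitochondrial biogenesis, had 0.481 to 0.746 in B cells and did not exceed 0.0107 in T cells. The retinoid reductase gene Dhrs3, a retinoic acid target, had 0.458 to 0.803 in B cells and 0.104 to 0.160 in T cells. The clock repressor gene Nr1d1 was higher in T cells, at 0.481 to 0.754 against 0.174 to 0.324, and Angptl4, a target of peroxisome proliferator-activated receptors, was at 0.518 to 1.05 against 0.145 to 0.197. They were not among the genes tested with the filter.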
